A study of Mus musculus with 28 samples.

Results

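The HCN pacemaker channels are described here by the genes Hcn2, Hcn3 and Hcn4, which are 3 of the 41549 genes in the deposited count tables. They were taken by gene name, from the HA-positive and the HA-negative table alike. The libraries hold RNA of sorted nuclei from the motor cortex of 7 mice. Each mouse carried AAV-Cas9-miR-124-empty in its left hemisphere. The right hemisphere had received AAV-Cas9-miR-124-g4, so that vector and side cannot be told apart. AAV is adeno-associated virus, an injected gene carrier, and the vectors are called empty and g4 below. Both deliver Cas9, a DNA-cutting enzyme tagged with the HA epitope, so that the empty-vector nuclei carry Cas9 too. The 4 groups are nuclei that stained for the tag (HA-positive) and nuclei that did not (HA-negative), from the empty and from the g4 side, with 7 libraries in each. The sources used here do not give the strain, age or sex of the mice, the promoter that drives Cas9 or the meaning of g4.

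HCN channels open when the membrane becomes more negative and carry an inward current of sodium and potassium ions, called Ih. Direct binding of cyclic AMP (cAMP) to the channel makes it open more readily. In neurons Ih sets the resting potential, damps the summation of synaptic inputs and contributes to rhythmic firing. Hcn2 encodes a subunit found widely in the brain that responds strongly to cAMP. Hcn3 encodes a subunit that responds little to cAMP. Hcn4 encodes the slowest subunit, best known as the main pacemaker subunit of the sinoatrial node of the heart.

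All 3 genes are protein-coding in the GENCODE annotation of GRCm38. Hcn2 (ENSMUSG00000020331) lies on the plus strand at chr10:79716634-79736108, and its merged exons cover 3195 bases. Hcn3 (ENSMUSG00000028051) lies on the minus strand at chr3:89146074-89160196, with 4154 exon bases. Hcn4 (ENSMUSG00000032338) lies on the plus strand at chr9:58823412-58863175, with 6118 exon bases. Exons of Hcn3 overlap 711 bases of exons of Pklr, a pyruvate kinase gene on the other strand. The sources used here do not give the strand setting of the counting, so the counts of Hcn3 are uncertain to that extent, although Pklr itself had 0 counts in all 28 libraries.

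The vectors are named for miR-124, a microRNA abundant in neurons that pairs through its seed with sites in the 3′ untranslated region (3′ UTR) of messenger RNAs. The annotated 3′ UTRs of the 3 genes were searched on the sense strand for the seed match of 7 bases GTGCCTT, for the one shifted by a base, which reads TGCCTTA, and for the longer match GTGCCTTA that holds both. None of these matches occurs in the 3′ UTRs of Hcn2, Hcn3 or Hcn4, whereas 20.6% of 21193 coding genes with a 3′ UTR hold at least 1. Among genes with a 3′ UTR of similar length (from 0.8 times that of the member up to the inverse of that factor), the share is 9.89% for Hcn2, 23.1% for Hcn3 and 30.9% for Hcn4. The shorter match TGCCTT, which lies inside all 3 of them, occurs once in Hcn3, at base 324 of its 3′ UTR of 1525 bases, and 44.7% of coding genes hold it. This match is shown because it is the only one in the 3′ UTRs of the 3 genes. Its 6 matching bases are in capitals, and the stretch lies at chr3:89147262-89147285 on the minus strand.
Hcn3: cccacagcccTGCCTTtattaagc
A match of letters is a description of the sequence and shows neither binding nor a response.

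The libraries held 248612 to 902944 counts and 8687 to 13668 detected genes. At this depth 3 counts correspond to 3.32 to 12.1 CPM (counts scaled to a fixed library size), which is the upper limit that a count of 0 allows in a library. Empty HA-positive libraries had the fewest detected genes, with a median of 10475 against 11973 in g4 HA-positive, 12499 in empty HA-negative and 12125 in g4 HA-negative libraries. Neuronal and astrocyte markers were detected in all groups, and the levels of several marker lists differed by fraction. The summed level of 12 inhibitory neuron markers, all detected in every group, was 2621 to 4186 CPM in empty HA-positive libraries and 826 to 1214 CPM in empty HA-negative ones. The corresponding ranges on the g4 side were 1735 to 3393 CPM and 733 to 1191 CPM. The 12 excitatory neuron markers, all detected as well, summed to 895 to 1660 CPM in empty HA-positive and 1610 to 2238 CPM in empty HA-negative libraries. The 10 oligodendrocyte markers summed to 52.0 to 126 CPM and 1221 to 2116 CPM in the same groups, and Opalin was at 0 in all empty HA-positive libraries. The 8 microglia markers summed to 6.99 to 44.5 CPM and 257 to 578 CPM, with Cx3cr1, P2ry12, C1qa and Gpr34 at 0 in all empty HA-positive libraries. The 6 markers of striatal projection neurons summed to 17.1 to 116 CPM in empty HA-positive and 367 to 890 CPM in empty HA-negative libraries. Among the g4 HA-positive libraries, that of animal 19 stood apart. Its oligodendrocyte markers summed to 1491 CPM against 106 to 224 CPM in the other 6 of its group, its microglia markers to 326 against 2.74 to 38.8 CPM, and it held 591 counts of Xist where the animal's other 3 libraries held 0. Its pairing with the animal's other libraries is therefore uncertain, and the counts of animals below keep it as labelled. The main differences that rest on this library are also given without it.

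Hcn2 was the main HCN transcript of these nuclei. It gave 749 counts over the 28 libraries and was detected in every one, against 93 counts in 22 libraries for Hcn3 and 52 counts in 17 libraries for Hcn4. Ranked by mean CPM among 19569 detected genes, Hcn2 stood at position 2824, Hcn3 at 9741 and Hcn4 at 10925. Per kilobase of exon, the mean level over all libraries was 15.9 ± 5.72 CPM for Hcn2, 1.48 ± 1.64 CPM for Hcn3 and 0.648 ± 0.995 CPM for Hcn4 (SD, n = 28). Hcn2 was above both other genes on this scale in 28 of 28 libraries. Its mean was 10.7 times that of Hcn3 and 24.5 times that of Hcn4. Hcn3 was above Hcn4 in 19 libraries, below it in 5 and equal in 4, so that the order of these neighbours does not hold library by library.

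**Figure D1:**
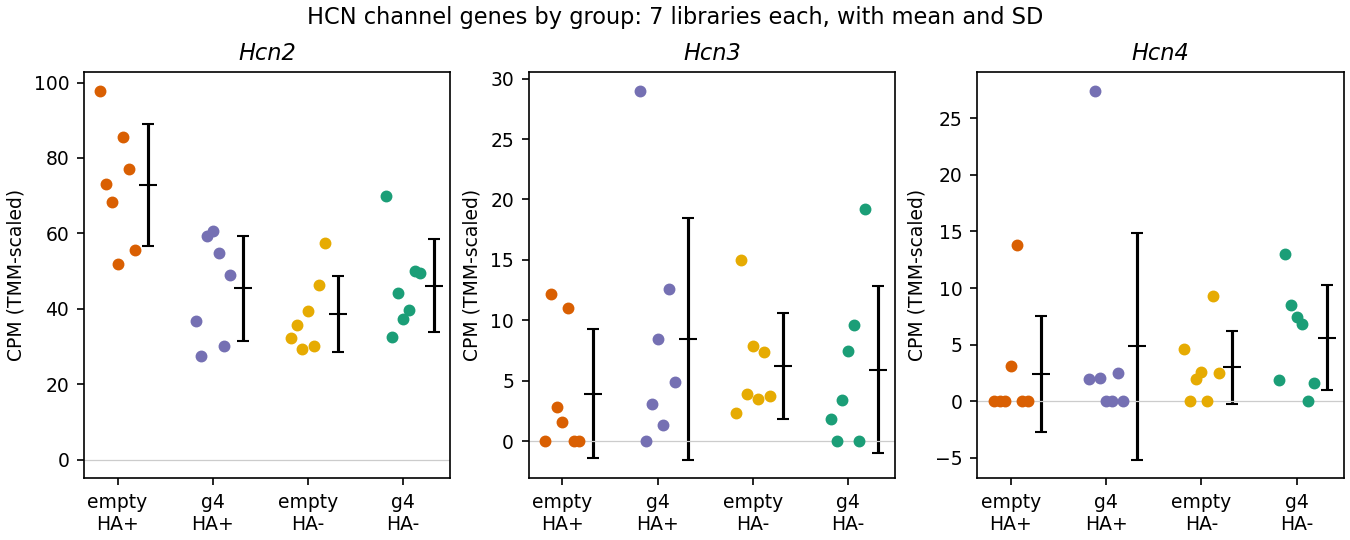
Levels of Hcn2, Hcn3 and Hcn4 in CPM (y axis) in the 4 groups (x axis), where points are single libraries, lines are group means and bars are 1 SD (n = 7). Hcn2 lies between 27.4 and 97.8 CPM in all 28 libraries, while Hcn3 and Hcn4 are at or near 0 in many.

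In empty HA-positive nuclei Hcn2 ranged from 52.0 CPM through a median of 73.0 to 97.8 CPM, with a mean of 72.8 ± 16.1 CPM (SD, n = 7). In g4 HA-positive nuclei it ranged from 27.4 through 49.0 to 60.7 CPM, with a mean of 45.5 ± 13.9 CPM, or 43.2 CPM without animal 19. In empty HA-negative nuclei the range was 29.5 through 35.6 to 57.5 CPM and the mean 38.6 ± 10.2 CPM. The empty HA-positive group was the highest of the 4, and its lowest libraries overlapped the highest ones of each other group. In g4 HA-negative nuclei the range was 32.4 through 44.1 to 69.9 CPM and the mean 46.1 ± 12.3 CPM. The other 3 group means, 46.1, 45.5 and 38.6 CPM, lay within 1 SD of each other. The coefficient of variation within groups was 22.2 to 30.6%, where counting alone gives 18.4 to 20.9%, since a library held only 10 to 57 counts of Hcn2. Reads without molecular identifiers are not independent molecules, so counting limits here cover counting error only.

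**Figure D2:**
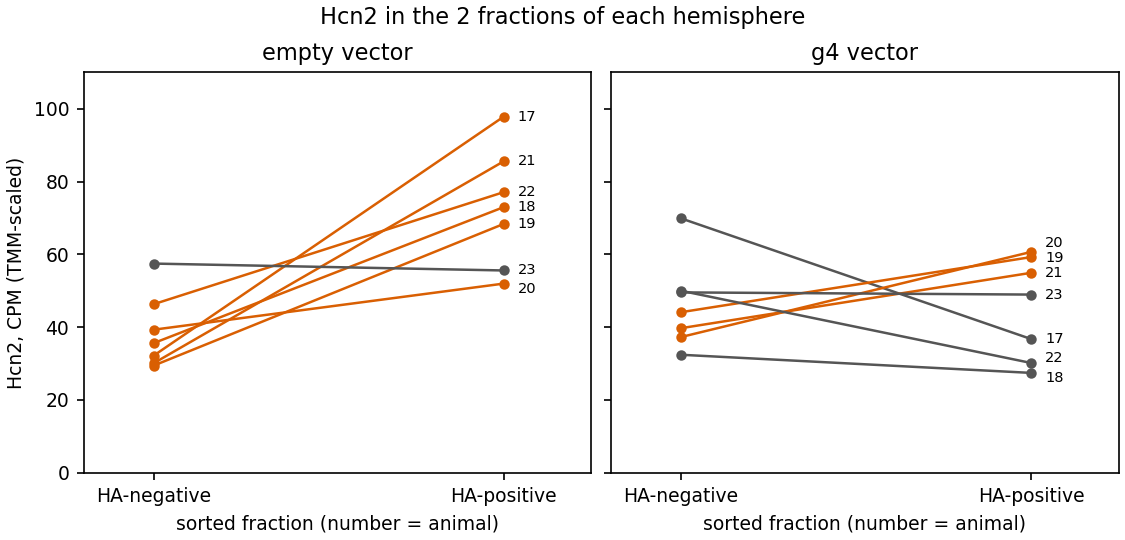
Hcn2 in CPM (y axis) in HA-negative and HA-positive nuclei (x axis) of the empty side (left panel) and the g4 side (right panel), with a line for each of the 7 animals, orange where it rises and grey where it falls. With empty 6 of 7 lines rise from HA-negative to HA-positive nuclei, and with g4 3 of 7 do. Animal 19, whose g4 HA-positive library is paired as labelled, is among those that rise with g4.

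With the empty vector, Hcn2 rose in HA-positive against HA-negative nuclei. The means were 72.8 and 38.6 CPM, a ratio of 1.88, and HA-positive was higher in 6 of 7 animals. Of the HA-positive libraries, 5 lay above every HA-negative one. The log2 fold change was 0.89 ± 0.27 (SE, 95% interval 0.34 to 1.45), with an adjusted p of 0.0394 by edgeR's quasi-likelihood test with Benjamini-Hochberg adjustment over 5538 genes. In this comparison 6.99% of the genes tested were called in either direction and 3.45% as higher in HA-positive nuclei. Hcn2 was called, while Hcn3 and Hcn4 had too few counts to be tested in this fit. In animals 17 to 20 the HA-positive and HA-negative means were 72.8 and 34.2 CPM. In animals 21 to 23, whose numbers differ between titles and table columns, they were 72.7 and 44.6 CPM. The summed inhibitory neuron markers were higher in the same HA-positive libraries and the glial markers lower, and their part in the difference was not tested. In bulk libraries, fewer nuclei of a type and less RNA per nucleus cannot be told apart.

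The call for Hcn2 was close to its threshold. With the animal as a block the log2 fold change was 0.91 and the adjusted p 0.0901 by edgeR. The empty HA-positive libraries of animals 17, 21 and 22 had fewer than 10000 detected genes, and they were the 3 highest for Hcn2, at 97.8, 85.6 and 77.1 CPM. Without these 3 libraries the log2 fold change was 0.67 and edgeR's adjusted p 0.198. Leaving out 1 animal at a time gave 0.77 to 1.08, with edgeR's adjusted p between 0.0276 and 0.136. The call held without animal 23 and was lost without any 1 of animals 17 (adjusted p 0.136), 18 (0.0887), 19 (0.109), 20 (0.0549), 21 (0.114) and 22 (0.0585). DESeq2 gave an adjusted p of 0.0246.

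**Figure D3:**
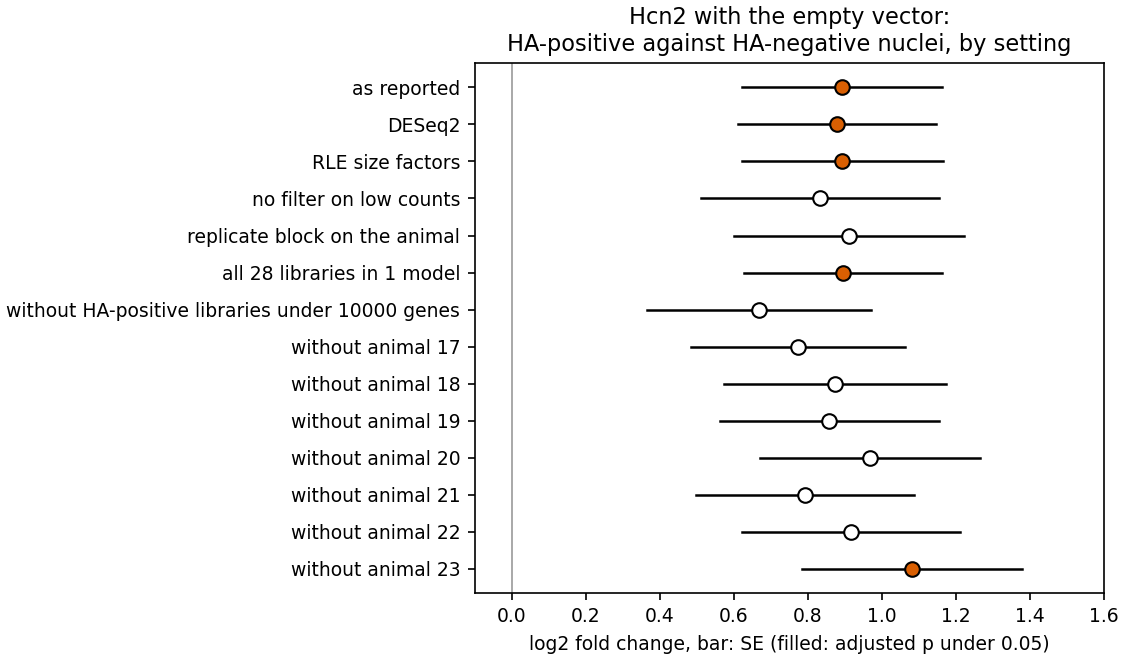
Log2 fold change of Hcn2 in HA-positive against HA-negative nuclei with the empty vector (x axis) under each setting (y axis), with its standard error as bars. The estimate is positive under every setting shown, from 0.67 to 1.08, while the call at an adjusted p of 0.05 is lost in several.

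On the g4 side, Hcn2 was at 45.5 ± 13.9 CPM in HA-positive and 46.1 ± 12.3 CPM in HA-negative nuclei. HA-positive was higher in 3 of 7 animals and the groups overlapped. The log2 fold change was -0.00 ± 0.27 (SE, 95% interval -0.56 to 0.55), with an adjusted p of 0.999 by edgeR. In this comparison 6.4% of 6264 genes were called, 3.32% as higher in HA-positive nuclei. Hcn2 was not called, and Hcn3 and Hcn4 were not tested in this fit. With animal 19 removed from the g4 HA-positive group the log2 fold change of Hcn2 was -0.08.

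Between vectors within HA-positive nuclei, Hcn2 was at 45.5 CPM with g4 and 72.8 CPM with empty. It was lower with g4 in 6 of 7 animals, and 4 of the 7 g4 libraries lay below every empty one. The log2 fold change was -0.65 ± 0.29 (SE, 95% interval -1.24 to -0.07). Its unadjusted p was 0.0291 and its adjusted p 0.73 by edgeR, so it did not pass. Of 5011 genes tested, 3 were called, a share of 0.0599%, none of them an HCN gene, while 336 had an unadjusted p under 0.05 and DESeq2 called 5. Marker levels moved between the same libraries. The inhibitory neuron markers summed to 3210 ± 510 CPM with empty and 2608 ± 555 CPM with g4 (SD, n = 7), and 2 of 11 tested ones had a positive log2 fold change. The astrocyte markers summed to 954 ± 307 and 1413 ± 456 CPM, with 5 of 6 positive, and 8 of 9 excitatory neuron markers were positive. In the g4 libraries other than that of animal 19, the inhibitory neuron markers summed to 2753 ± 437 CPM and the astrocyte markers to 1408 ± 500 CPM. None of these markers passed edgeR's threshold, and their part in the Hcn2 values was not tested. Without the library of animal 19 the log2 fold change of Hcn2 was -0.73. Without the 4 HA-positive libraries under 10000 detected genes it was -0.32 (95% interval -0.93 to 0.28), a move of more than 1.5 times. Without animal 17 the 95% interval was -1.15 to 0.10, and it also included 0 without animal 18 or without animal 22.

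In HA-negative nuclei, Hcn2 was at 46.1 CPM with g4 and 38.6 CPM with empty, higher with g4 in 4 animals and lower in 3. The log2 fold change was 0.25 ± 0.26 (SE, 95% interval -0.27 to 0.77), with an adjusted p of 0.998 by edgeR, and without animal 17 it was 0.09. In this comparison 0% of 6262 genes were called by edgeR, while 238 had an unadjusted p under 0.05 and DESeq2 called 1. The effect of g4 on Hcn2 in HA-positive nuclei minus that in HA-negative nuclei was -0.90 ± 0.38 on the log2 scale (SE, 95% interval -1.66 to -0.15). This is also the difference between the 2 vectors in the HA-positive to HA-negative change. Its unadjusted p was 0.0199 and its adjusted p 0.944 by edgeR, so the vectors are not shown to differ. Without the library of animal 19 the difference was -0.98. Without the 4 HA-positive libraries under 10000 detected genes it was -0.59 (95% interval -1.36 to 0.18), and without animal 17 it was -0.61 (95% interval -1.42 to 0.20), so that both intervals then include 0. Across 7197 genes 0% were called by edgeR for this difference, and 357 had an unadjusted p under 0.05. DESeq2 called 0 of 19558 genes with an adjusted p.

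**Figure D4:**
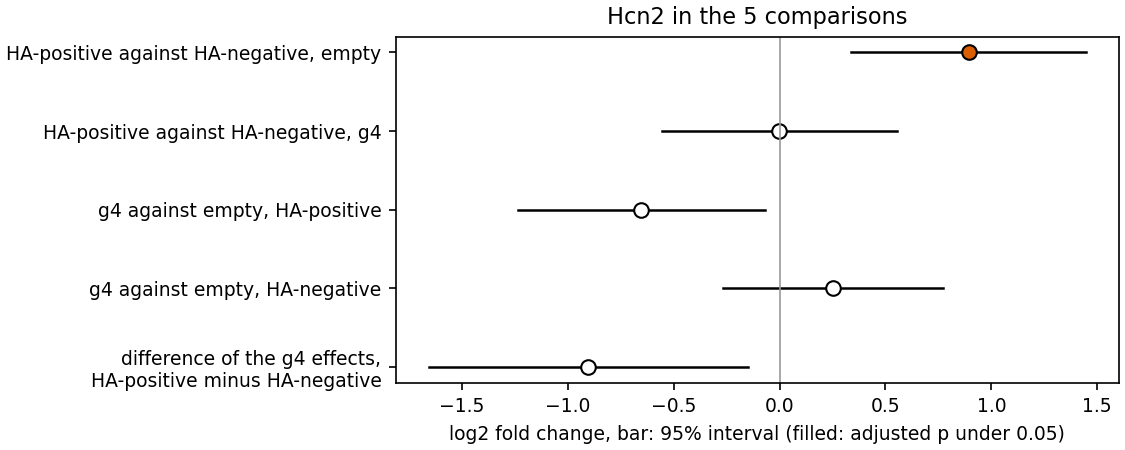
Log2 fold change of Hcn2 (x axis) with its 95% interval in the 5 comparisons (y axis). The interval excludes 0 in HA-positive against HA-negative nuclei with the empty vector, in g4 against empty in HA-positive nuclei and in the difference of the g4 effects, and only the first of these passes the adjusted threshold. Without the HA-positive libraries under 10000 detected genes, 0 lies within the intervals of the difference and of g4 against empty in HA-positive nuclei.

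Hcn3 was near the limit of detection. It was found in 4 of 7 empty HA-positive, 6 of 7 g4 HA-positive, 7 of 7 empty HA-negative and 5 of 7 g4 HA-negative libraries. The means in that order were 3.95 ± 5.35, 8.48 ± 10.0, 6.25 ± 4.39 and 5.92 ± 6.89 CPM (SD, n = 7), with medians of 1.58, 4.90, 3.93 and 3.39 CPM. Single libraries carried much of each group. In g4 HA-positive nuclei animal 17 gave 15 of the group's 31 counts, at 29.0 CPM, and the g4 HA-negative library of animal 23 held 12 of 26, at 19.2 CPM. The highest libraries of the empty groups reached 12.2 CPM in HA-positive and 15.0 CPM in HA-negative nuclei, and all groups overlapped.

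Hcn4 was lower still. It was found in 2 of 7 empty HA-positive, 4 of 7 g4 HA-positive, 5 of 7 empty HA-negative and 6 of 7 g4 HA-negative libraries. The means in that order were 2.42 ± 5.15, 4.85 ± 10.0, 2.99 ± 3.20 and 5.60 ± 4.64 CPM (SD, n = 7), and the median was 0 in the first group and 6.85 CPM in the last. The highest libraries were at 13.8, 27.4, 9.26 and 13.0 CPM. In both HA-positive groups 1 library held 71.4% of the counts of Hcn4, which were 7 with empty and 14 with g4.

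Neither Hcn3 nor Hcn4 had enough counts for the fit over all genes, so their mean CPM was compared by two-sided exact permutation of the libraries. For g4 against empty in HA-positive nuclei the difference was 4.54 CPM for Hcn3 (exact p = 0.333) and 2.43 CPM for Hcn4 (exact p = 0.608). In HA-negative nuclei it was -0.324 CPM for Hcn3 (exact p = 0.908) and 2.61 CPM for Hcn4 (exact p = 0.244). The latter ranged from 0.881 CPM without animal 18 to 4.59 CPM without animal 22 (exact p = 0.0368, 0.294 adjusted over 8 tests). None of the 4 differences over all libraries exceeded the spread between libraries, and single animals set their size: without animal 17 the difference in HA-positive nuclei was 0.459 CPM for Hcn3, and without animal 18 it was -1.74 CPM for Hcn4. Without the g4 library of animal 19 the differences in HA-positive nuclei were 5.43 CPM for Hcn3 and 2.89 CPM for Hcn4. For HA-positive minus HA-negative nuclei with empty, Hcn3 differed by -2.30 CPM (exact p = 0.389) and Hcn4 by -0.571 CPM (exact p = 0.804). With g4 the differences were 2.56 CPM for Hcn3 (exact p = 0.606) and -0.748 CPM for Hcn4 (exact p = 0.932), and without the library of animal 19 they were 3.45 and -0.286 CPM. The exact p adjusted over these 8 tests was 0.932 for each, and the smallest p of a split of 7 against 7 libraries is 0.0005828. With the animal as a block, the exact p of the 8 differences was 0.266 to 0.875, where the smallest possible is 0.0156.

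Hcn2 made up 91.6% of the counts of the 3 genes in empty HA-positive libraries, 81.2% in g4 HA-positive, 82.1% in empty HA-negative and 80.4% in g4 HA-negative ones. These shares are over summed counts of 7 libraries, in which Hcn3 and Hcn4 rest on few reads, and they were not tested.

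Over the 28 libraries, the genes whose log2 CPM followed Hcn2 most closely among 7197 genes were Ankrd29 (Pearson r = 0.703), Lifr, a cytokine receptor gene (r = 0.698), and Clstn2, a calsyntenin gene of the synapse (r = 0.693). The libraries share 4 groups and 7 animals, so these values are a description. Lifr was at 135 ± 43.1 CPM in empty HA-positive and 76.4 ± 11.7 CPM in g4 HA-positive nuclei (SD, n = 7). In HA-negative nuclei it was at 60.0 ± 11.9 CPM with empty and 70.0 ± 25.7 CPM with g4. Its highest group mean was in the same group as that of Hcn2, which its choice by likeness to Hcn2 favours.

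HCN channels work with proteins that anchor them and with the enzymes that make, break down and answer to cAMP. Of 71 such partner genes and related channels, 43 had enough counts to be tested in HA-positive against HA-negative nuclei with the empty vector. None rose and 6 fell by edgeR, which is 14% of those tested beside 6.99% of all genes. The median log2 fold change was -0.02 over the partner genes and 0.00 over all genes tested. Enzymes of cAMP breakdown made up 4 of the 6. Pde10a fell by 2.66 ± 0.22 on the log2 scale (SE, edgeR adjusted p 2.33e-09), from 555 ± 214 CPM in HA-negative to 86.9 ± 20.5 CPM in HA-positive nuclei. Pde7b fell by 2.37 ± 0.38 (edgeR adjusted p 8.27e-05), Pde1b fell by 2.00 ± 0.30 (3.05e-05) and Pde4b fell by 1.16 ± 0.33 (0.0257). Adcy5, an adenylyl cyclase that makes cAMP, fell by 2.60 ± 0.39 (edgeR adjusted p 0.000301), from 287 ± 102 to 48.4 ± 37.0 CPM. Nedd4l, a ubiquitin ligase that acts on membrane channels, fell by 0.66 ± 0.19 (edgeR adjusted p 0.0316). Pde10a and Adcy5 are known for high levels in striatal projection neurons, whose 6 markers were also lower in HA-positive nuclei, and the part of such nuclei in these falls was not tested. Of the 7 tested PKA subunit and Epac genes, which answer to cAMP, 0 were called by edgeR and 6 had a positive log2 fold change. The median was 0.30. DESeq2 called 1, Prkar2a (adjusted p 0.0453). Without animal 17 edgeR called Prkar2a as well (adjusted p 0.0405), and in 1 model over all 28 libraries edgeR called Prkar2a (adjusted p 0.0237) and Rapgef4, an Epac gene (adjusted p 0.0321).

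On the g4 side, 44 partner genes were tested in HA-positive against HA-negative nuclei, and 2 rose and 7 fell by edgeR, 20.5% of those tested beside 6.4% of all genes. The median log2 fold change was 0.02 over the partner genes and 0.01 over all genes. Pex5l, which encodes TRIP8b, the auxiliary subunit that controls trafficking and cAMP response of HCN channels, fell by 0.77 ± 0.21 (SE, edgeR adjusted p 0.0244). Its level was 131 ± 42.8 CPM in HA-negative and 75.1 ± 19.7 CPM in HA-positive nuclei. With the empty vector Pex5l was at 109 ± 14.8 and 82.0 ± 26.1 CPM, a log2 fold change of -0.41 ± 0.23 that did not pass (edgeR adjusted p 0.349). The difference between the vectors was -0.38 ± 0.32 and did not pass either. Flna, a filamin that links membrane proteins to actin, fell by 1.49 ± 0.42 (edgeR adjusted p 0.0242), and Nedd4l fell by 0.56 ± 0.17 (0.0359). Pde10a fell by 1.88 ± 0.46 (edgeR adjusted p 0.0293), Pde7b fell by 1.72 ± 0.31 (0.000515), Pde1b fell by 1.29 ± 0.28 (0.00531) and Adcy5 fell by 1.83 ± 0.44 (0.0274). With the animal as a block, the adjusted p of Adcy5 by edgeR was 0.118. Kcnq3, a subunit of the M-current potassium channel, rose by 0.51 ± 0.11 (edgeR adjusted p 0.00211), from 370 ± 40.8 to 528 ± 46.9 CPM, in 7 of 7 animals. Kcnh2, an ERG potassium channel gene whose protein carries a domain related to the cAMP-binding domain of HCN channels, rose by 1.35 ± 0.40 (edgeR adjusted p 0.0342), from 17.0 ± 8.75 to 43.0 ± 26.0 CPM. Without HA-positive libraries under 10000 detected genes the log2 fold change of Kcnh2 was 1.06 (edgeR adjusted p 0.0988). Without the library of animal 19, which was high in markers of oligodendrocytes, microglia and striatal neurons, the log2 fold changes of Pde10a and Pex5l were -2.24 and -0.86, and all 9 genes kept their calls.

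**Figure D5:**
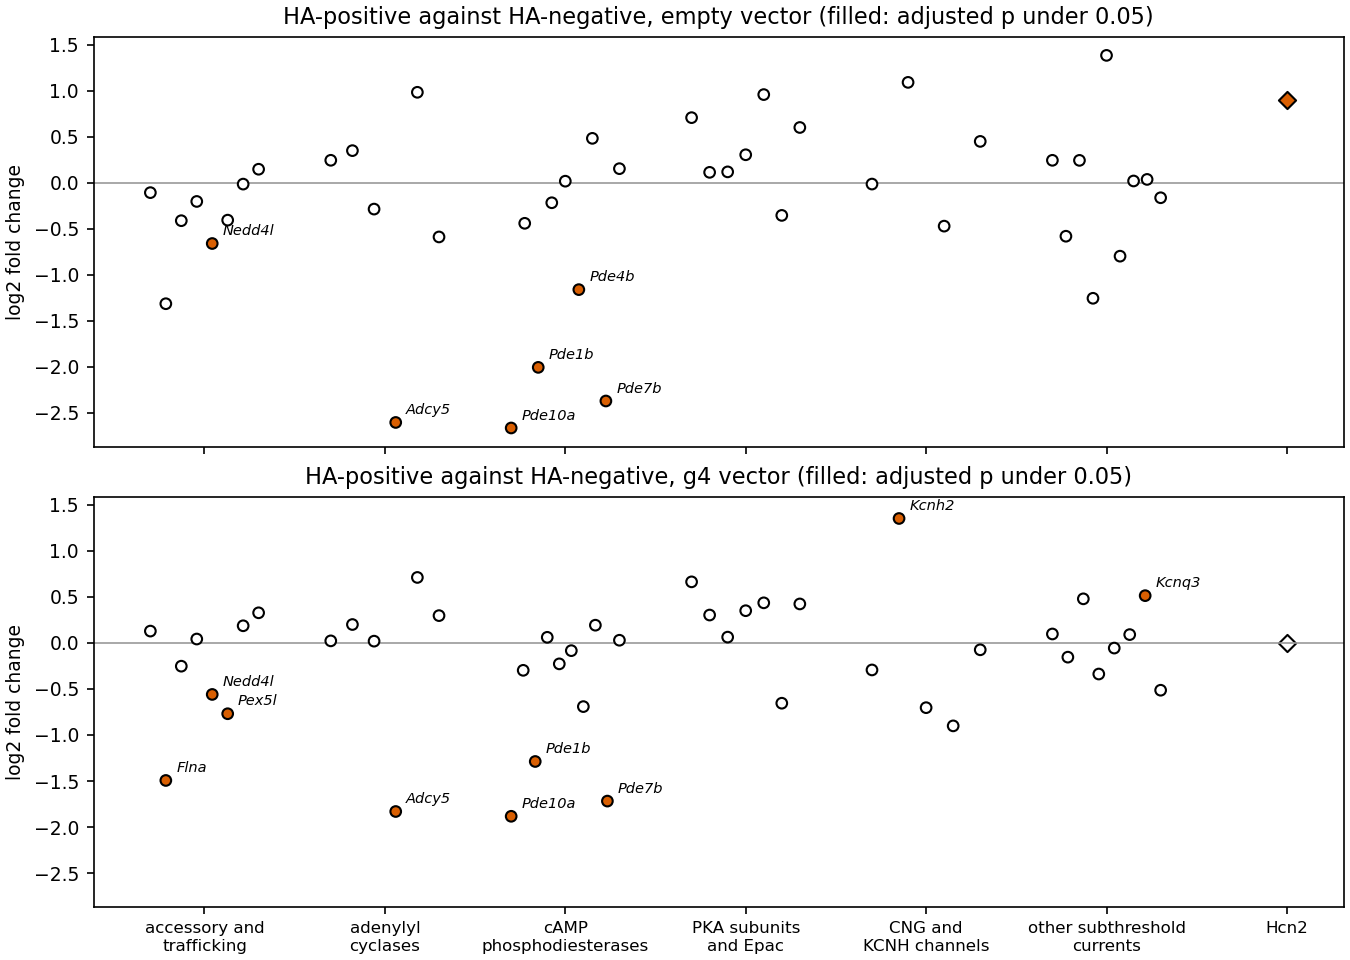
Log2 fold change of HA-positive against HA-negative nuclei (y axis) for the tested partner genes by list (x axis), with the empty vector above and g4 below. Circles are partner genes, the diamond is Hcn2, and filled symbols have an adjusted p under 0.05. Adcy5, Pde1b, Pde7b and Pde10a fell with both vectors, and Kcnh2 and Kcnq3 rose on the g4 side.

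Between vectors, 0 of 39 partner genes tested in HA-positive nuclei were called by edgeR, with 3 at an unadjusted p under 0.05. DESeq2 called 1, as did edgeR in 1 model over all 28 libraries. That gene was Kcnq3, at 528 ± 46.9 CPM with g4 and 356 ± 58.6 CPM with empty, higher with g4 in 7 of 7 animals. Its log2 fold change was 0.56 ± 0.13 (SE), with an adjusted p of 0.139 by edgeR, 0.0327 by edgeR over all 28 libraries and 0.0211 by DESeq2. Without the library of animal 19 it was 0.59 (edgeR adjusted p 0.0704). In HA-negative nuclei 0 of 44 were called by edgeR, with 4 at an unadjusted p under 0.05 and 0 called by DESeq2. For the difference of the g4 effects 0 of 49 were called by edgeR, with 4 at an unadjusted p under 0.05 and 0 by DESeq2. Pex5l had a log2 fold change for g4 against empty of -0.12 ± 0.27 in HA-positive and 0.26 ± 0.18 in HA-negative nuclei, and neither passed. Without the library of animal 19 the first was -0.20.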

How the data were processed

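Raw counts per gene were deposited in 1 table for HA-positive and 1 for HA-negative nuclei, per the labels, with 7 libraries in each of 4 groups. Per the labels' protocols, sorted nuclei of fixed tissue gave 40 to 2000 pg of RNA. The submitters' processing notes name GRCm38, and no aligner, counting program or strand setting is stated (not given in the sources used here). Cells without a value were read as 0, and 1 of 41550 entries that named no gene was left out. Of 41549 genes, 41474 matched GENCODE by Ensembl identifier, from which positions, exon lengths and 3′ UTRs were taken.

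Genes were tested with edgeR 4.0.16 in R 4.3.3 (filterByExpr, TMM factors, robust quasi-likelihood fit, two-sided) on the 14 libraries of each comparison, or all 28 for the difference of the g4 effects. Calls were made at an adjusted p under 0.05 (Benjamini-Hochberg, over all genes tested). Members under the filter were compared by exact permutation of mean CPM over 3432 splits. CPM used TMM factors over the 28 libraries, and likeness used log2 CPM with a prior count of 2. The fit was tested on simulated counts.

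Samples with the same animal number come from the same mouse, per the labels, and the animal was a block in an alternative. Deviations of same-animal libraries from their group means had correlations of -0.1 to 0.132. The labels tie each library to a mouse, so replicates are animals. DESeq2 1.42.0, RLE factors, no filter, 1 model over all libraries and leaving out libraries were further alternatives. The alternatives for partner genes were chosen after seeing the data.

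The text names the 3 members and Pex5l in every comparison, the called partner genes (at most 6 rises and 6 falls), the 3 genes most like Hcn2, and defining markers. Kcnq3 between vectors, Prkar2a, Rapgef4 and Pklr were named after their values were seen. The members and lists were chosen with earlier results of these data known. Other HCN genes are not reported here.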

Additional observations from a re-analysis of the deposited data

Results flagged for a closer look

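In 12 groups of 7 libraries (3 genes in 4 groups), the highest and the lowest library were compared with the rest, and 2 lay far from the others, both for Hcn4. The empty HA-positive library of animal 21 held 5 counts of Hcn4, at 13.8 CPM, where the other 6 were at 0 to 3.15 CPM. In g4 HA-positive nuclei animal 18 gave 10 counts of Hcn4, at 27.4 CPM, where the other 6 were at 0 to 2.51 CPM. Both libraries were among the 4 HA-positive ones with fewer than 10000 detected genes, at 8687 and 9282. The limit used marks about 1 in 20 groups by chance where values are normally distributed, and its rate for counts this low was not measured.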

How the results depend on the processing

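For Hcn2 in HA-positive against HA-negative nuclei with the empty vector, the log2 fold change stayed positive but lost its call with no filter (0.83), with the replicate block on the animal (0.91) and without HA-positive libraries under 10000 genes (0.67), and it was 0.77 to 1.08 with 1 animal left out. On the g4 side Hcn2 was near 0 and changed sign, to 0.0802 without those libraries and within -0.13 to 0.17 with 1 animal left out. The block also ended the call of Adcy5 on the g4 side (-1.80) and changed no other call of a named gene. Hcn3 and Hcn4 changed sign in several comparisons, with means that rest on few counts. With 1 animal left out, the difference between vectors in HA-positive nuclei was 0.459 to 7.32 CPM for Hcn3 and -1.74 to 5.14 CPM for Hcn4, and in HA-negative nuclei -2.95 to 2.12 CPM for Hcn3, which was 0.0166 on the log2 scale with no filter. HA-positive minus HA-negative gave -2.97 to 0.878 CPM for Hcn4 with empty, and with g4 -1.54 to 5.37 CPM for Hcn3 and -3.28 to 0.370 CPM for Hcn4. The difference of the g4 effects for Hcn4 was 0.0194 on the log2 scale by DESeq2. Pex5l between vectors in HA-positive nuclei was -0.35 to 0.0365 on the log2 scale with 1 animal left out, and positive only without animal 18.

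Genes called between vectors in HA-positive nuclei went from 3 to 5 by DESeq2, in 1 model over all libraries and with animal 19 removed from g4 HA-positive nuclei, to 28 with no filter, to 1 with the block, to 0 without libraries under 10000 genes and to 1 to 4 with 1 animal left out. In HA-negative nuclei DESeq2 called 1. Between fractions with empty, 387 became 664 by DESeq2, 661 with no filter, 617 in 1 model and 251 to 372 with 1 animal left out. With g4, 401 became 530 by DESeq2, 547 with no filter, 362 in 1 model and 218 to 423 with 1 animal left out. It became 508 with animal 19 removed from g4 HA-positive nuclei only. The difference of the g4 effects gave 3 with no filter. Except where a cause is stated, the cause was not tested. Among the partner genes, Pde1b and Pde7b with both vectors, Pde10a and Adcy5 with empty and Kcnq3 with g4 kept their calls in all alternatives run, while Nedd4l, Pde4b, Pex5l, Flna, Kcnh2 and, with g4, Pde10a and Adcy5 lost theirs in at least 1. DESeq2 gave no adjusted p for Hcn4 between vectors in HA-positive nuclei, and the model over all libraries gave no value for Hcn3 and Hcn4, which were under its filter.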
